A study of Mus musculus with 11 samples.

Results

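The genes studied are 39 mouse genes of DNA double-strand break and crosslink repair, whose RNA was sequenced in primary fibroblasts of the lung, the cells that lay down its connective tissue. They were taken by symbol from the 56980 genes counted: 17 act in homologous recombination, 9 in end joining, 8 in the signalling of breaks and stalled forks, and 5 in the Fanconi anaemia pathway. The libraries were 6 of cGAS KO cells (3 females and 3 males) and 5 of WT cells (2 females and 3 males). The labels number them within genotype and sex, and each is taken here as 1 mouse. All cultures grew at 5% O2 with 15% serum, and libraries were made after ribodepletion. The labels give no age, strain, KO allele, passage or treatment beyond this, and they name the extracted material as tissue in 1 place, so the state of the cells at lysis is not known here.

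cGAS is the sensor that makes the messenger cGAMP when it binds DNA in the cytosol, and a nuclear pool of it has been reported to restrain homologous recombination. A double-strand break can be joined end to end, after Ku has bound the ends and the kinase DNA-PKcs, the nuclease Artemis and the Xrcc4-Lig4 ligase have acted. It can also be resected to single-stranded DNA, after which Brca2 and its partners guide copying from the sister chromatid. Recombination is used mainly in S and G2 phase, and many of its genes are transcribed mainly in dividing cells. The Fanconi pathway joins it where a crosslink stops a replication fork. Which of these genes differ in level between KO and WT fibroblasts is the question the comparison addresses.

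Total counts ran from 27261958 to 48039328 per library. Cgas itself had 52 to 111 counts in KO libraries and 222 to 403 counts in WT libraries, a log2 fold change of -1.99 (SE 0.156, edgeR adjusted p = 0.00102). Fibroblast markers (10 genes) summed to 37440 to 51520 CPM in KO libraries and 40500 to 55220 CPM in WT libraries, where CPM is the count scaled to a common library size. Leukocyte and macrophage markers summed to 7383 to 12460 CPM in KO libraries and 5174 to 7576 CPM in WT libraries. All 11 markers of that list that could be tested had a higher fitted level in KO, with 0 called over both sexes, and the T cell marker Cd3e was below 1 CPM everywhere. Epithelial markers summed to 10.2 to 36.6 CPM in KO libraries and 22.1 to 45.7 CPM in WT libraries, with Epcam and Scgb1a1 below 1 CPM everywhere. Endothelial markers summed to 55.4 to 106 CPM in KO libraries and 40.2 to 88.5 CPM in WT libraries.

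All 39 repair genes were expressed and passed the filter on low counts, with 36 to 4046 counts per gene and library. Per kilobase of exon, the level over all 11 libraries was highest for H2ax, the histone variant phosphorylated beside breaks, at 38.3 ± 12.2 CPM per kb (SD, n = 11). Next came Parp1, a sensor of DNA nicks and ends, at 13.3 ± 2.50 CPM per kb. Nbn and Rad50, both of the complex that binds and trims broken ends, stood close together at 6.05 ± 1.21 and 5.89 ± 0.487 CPM per kb. The lowest were Polq, the polymerase of microhomology joining, at 0.586 ± 0.288, Palb2, which ties Brca1 to Brca2, at 0.540 ± 0.143, and the recombination gene Rad51c at 0.440 ± 0.0966 CPM per kb.

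No repair gene was called between KO and WT fibroblasts. In bulk RNA, fewer cells that express a gene and less RNA per cell cannot be told apart. In edgeR's quasi-likelihood test with sex in the model, 0 of 39 had a Benjamini-Hochberg adjusted p under 0.05, where Cgas was the 1 entry called of 22298 genes and repeats tested (0.00448%). At an unadjusted p under 0.05 there were 5 of 39 (12.8%), against 17.2% of all entries. In this fit the repair genes thus held no larger share of such values than the transcriptome did. In some other settings their share was somewhat larger, and examples are given below beside the share of all entries. Of these 5, Xrcc4, Dclre1c and Chek2 were higher in KO and Xrcc3 and Xrcc6 were lower. The fitted level was higher in KO for 19 of 39 genes (48.7%), beside 47.5% of all entries, and the median log2 fold change was -0.00316 over the repair genes and -0.0153 over all entries. Libraries of the 2 genotypes did not overlap for 2 of 39 genes (5.13%), Xrcc4 and Xrcc3, against 1.22% of all entries. DESeq2 called 1 repair gene (2.35% of all entries), Xrcc4, while limma-voom, which weighted libraries by their quality, called 3 (14.6% of all entries), Xrcc4, Chek2 and Xrcc3.

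**Figure D1:**
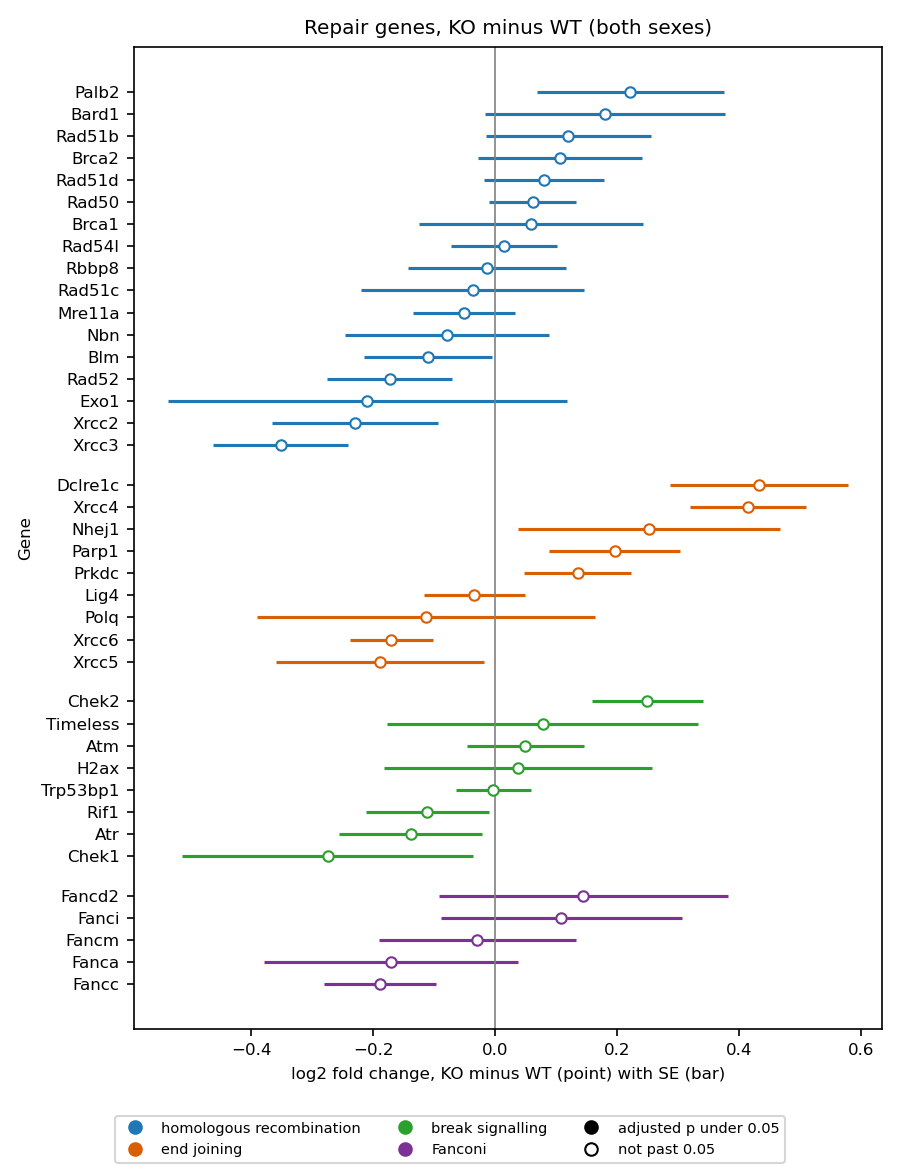
Log2 fold change of KO over WT for each of the 39 repair genes, ordered by role, with its standard error as bars. The values run from -0.35 (Xrcc3) to 0.43 (Dclre1c), and no role lies wholly on either side of 0.

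Homologous recombination genes were about evenly divided. Of the 17, 8 had a higher fitted level in KO, the median log2 fold change was -0.0135, and 0 were called in either direction. The gene with the smallest p was Xrcc3, which acts in a complex with Rad51c. Xrcc3 had 3.56, 3.26 and 3.26 CPM in KO females and 3.40, 3.47 and 3.78 CPM in KO males, against 3.84 and 5.51 CPM in WT females and 4.39, 4.08 and 4.20 CPM in WT males. All 6 KO libraries lay below all 5 WT libraries, and WT female 2 was the highest of the 11. The log2 fold change of Xrcc3 was -0.35 (SE 0.110, adjusted p = 0.184), and -0.25 without WT female 2.

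Xrcc2, which acts in a complex with Rad51b, Rad51c and Rad51d, had 4.88, 4.41 and 4.23 CPM in KO females and 4.94, 4.89 and 4.05 CPM in KO males, against 5.33 and 4.70 CPM in WT females and 7.18, 5.59 and 4.18 CPM in WT males. The genotypes overlapped, and the log2 fold change was -0.23 (SE 0.136, adjusted p = 0.396). Rad52, a strand-annealing protein, had 7.56, 6.85 and 6.82 CPM in KO females and 5.47, 5.99 and 7.18 CPM in KO males, against 7.52 and 9.32 CPM in WT females and 6.11, 6.79 and 7.22 CPM in WT males. Its highest level was in WT female 2, and its log2 fold change was -0.17 (SE 0.102, adjusted p = 0.394).

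Brca1, a ubiquitin ligase that acts with Bard1 in resection and later steps of recombination, had 10.9, 10.5 and 11.1 CPM in KO females and 15.2, 16.5 and 15.8 CPM in KO males, against 11.4 and 6.91 CPM in WT females and 22.7, 16.8 and 10.6 CPM in WT males. WT libraries held both the lowest and the highest value of Brca1, in WT female 2 and WT male 1, and every KO library lay between them. Its log2 fold change was 0.0584 (SE 0.184, adjusted p = 0.897). Brca2, which acts on resected single-stranded DNA, had 14.4, 13.6 and 13.6 CPM in KO females and 12.3, 13.6 and 12.99 CPM in KO males, against 13.4 and 8.03 CPM in WT females and 13.5, 14.9 and 13.3 CPM in WT males. WT female 2 stood apart below 10 other libraries that lay close together, and the log2 fold change was 0.11 (SE 0.135, adjusted p = 0.717). Among the other recombination genes, the fitted log2 fold changes for KO over WT included 0.22 for Palb2, 0.18 for Bard1, 0.12 for Rad51b, -0.0368 for Rad51c, 0.0799 for Rad51d and 0.0143 for the translocase Rad54l. For the end-processing genes they were -0.0515 for the nuclease Mre11a, 0.0611 for Rad50, -0.0792 for Nbn, -0.0135 for Rbbp8 (CtIP, which starts resection), -0.21 for the exonuclease Exo1 and -0.11 for the helicase Blm. None of these 12 reached an unadjusted p of 0.05.

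End joining genes held the highest 2 fold changes among the 39. Of the 9, 5 had a higher fitted level in KO, with a median log2 fold change of 0.135 and 0 called. Xrcc4, the scaffold that holds ligase Lig4 at the ends, had 4.05, 4.24 and 4.57 CPM in KO females and 5.20, 4.28 and 5.18 CPM in KO males, against 3.55 and 3.46 CPM in WT females and 3.52, 3.38 and 3.38 CPM in WT males. Every KO library was above every WT library, and the WT values lay within a narrow band. Its log2 fold change was 0.41 (SE 0.0954, adjusted p = 0.179), with an unadjusted p of 0.0011. Xrcc4 was the repair gene with the smallest p, and the call depended on the tool: DESeq2 gave 0.41 (adjusted p = 0.0257) and limma-voom 0.43 (adjusted p = 0.0201). Without WT female 1, edgeR called it at 0.45 (adjusted p = 0.0339), with 7.33% of all entries called.

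Dclre1c, which encodes Artemis, the nuclease that opens hairpins and trims ends, had 11.1, 12.8 and 10.6 CPM in KO females and 14.1, 12.6 and 10.3 CPM in KO males, against 10.7 and 9.20 CPM in WT females and 6.84, 10.6 and 6.85 CPM in WT males. The lowest 3 values were in WT libraries, but KO and WT overlapped, and the log2 fold change was 0.43 (SE 0.146, adjusted p = 0.201). With the leukocyte and macrophage score as a covariate it came to 0.008. The summed markers behind that score are given above, and their part in the difference was not tested. With this covariate the share of all entries at an unadjusted p under 0.05 was 2.0%, against 17.2% without it. Of the repair genes 1, in end joining, was under that p, against 5 without the covariate. The loss of low p values was thus not particular to the repair genes. Xrcc6, the Ku70 subunit that binds ends first, had 17.96, 16.6 and 18.3 CPM in KO females and 16.7, 16.1 and 17.0 CPM in KO males, against 19.0 and 20.1 CPM in WT females and 20.9, 18.1 and 17.6 CPM in WT males. Its log2 fold change was -0.17 (SE 0.0680, adjusted p = 0.242), with overlapping groups. Xrcc5, the Ku80 partner, had a log2 fold change of -0.19, while Lig4 had -0.0343, Nhej1 (XLF, which bridges the ends) 0.25, the kinase Prkdc 0.14, Polq -0.11 and Parp1 0.20. None of these 6 reached an unadjusted p of 0.05.

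Among the 8 signalling genes, 4 had a higher fitted level in KO, with a median log2 fold change of 0.0170 and 0 called. Chek2, the effector kinase of Atm, had 11.7, 12.1 and 14.1 CPM in KO females and 17.8, 16.2 and 16.1 CPM in KO males, against 11.6 and 12.0 CPM in WT females and 13.6, 13.9 and 11.3 CPM in WT males. The 3 KO males were the highest of all libraries, while KO females and WT libraries covered about the same range. Its log2 fold change was 0.25 (SE 0.0913, adjusted p = 0.215), and 0.0886 with the leukocyte score as a covariate. Atr, the kinase activated by single-stranded DNA at stalled forks, had 24.0, 23.2 and 20.2 CPM in KO females and 22.7, 22.4 and 22.0 CPM in KO males, against 23.9 and 19.5 CPM in WT females and 33.9, 24.7 and 23.3 CPM in WT males. Chek1, its effector kinase, had 4.52, 3.78 and 4.23 CPM in KO females and 4.23, 4.70 and 4.62 CPM in KO males, against 5.11 and 2.54 CPM in WT females and 9.83, 5.83 and 4.55 CPM in WT males. Both overlapped between genotypes, with log2 fold changes of -0.14 (SE 0.117, adjusted p = 0.562) for Atr and -0.27 (SE 0.239, adjusted p = 0.573) for Chek1.

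Atm, the kinase activated by double-strand breaks, had 37.4, 40.7 and 35.2 CPM in KO females and 39.9, 37.4 and 37.3 CPM in KO males, against 38.8 and 32.1 CPM in WT females and 44.8, 37.4 and 31.1 CPM in WT males. The lowest and the highest value were both in WT males, and its log2 fold change was 0.0494 (SE 0.0961, adjusted p = 0.821). H2ax had 48.4, 44.8 and 47.3 CPM in KO females and 54.5, 57.5 and 59.1 CPM in KO males, against 49.4 and 24.2 CPM in WT females and 93.9, 60.2 and 43.1 CPM in WT males. As with Brca1, WT female 2 was the lowest and WT male 1 the highest, and the log2 fold change was 0.0371 (SE 0.220, adjusted p = 0.948). The fitted log2 fold changes of the other 3 signalling genes were -0.00316 for Trp53bp1 and -0.11 for Rif1, which together limit resection, and 0.0782 for the fork protection gene Timeless.

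Of the 5 Fanconi genes, 2 had a higher fitted level in KO, with a median log2 fold change of -0.0291 and 0 called. Fancc, of the core complex that ubiquitinates Fancd2 and Fanci, had 9.01, 9.27 and 8.54 CPM in KO females and 6.72, 7.23 and 6.63 CPM in KO males, against 8.22 and 11.4 CPM in WT females and 7.91, 8.17 and 8.12 CPM in WT males. WT female 2 was the highest, the 3 KO males were the lowest, and the log2 fold change was -0.19 (SE 0.0917, adjusted p = 0.316). Fanca, of the same complex, had 6.42, 7.31 and 6.10 CPM in KO females and 8.07, 9.11 and 8.90 CPM in KO males, against 7.52 and 4.17 CPM in WT females and 16.3, 10.7 and 8.25 CPM in WT males, with a log2 fold change of -0.17 (SE 0.208, adjusted p = 0.7). Fancd2, which clamps DNA with Fanci once modified, had 7.69, 6.77 and 8.84 CPM in KO females and 11.3, 12.6 and 11.3 CPM in KO males, against 8.34 and 3.20 CPM in WT females and 16.0, 12.4 and 8.41 CPM in WT males, with a log2 fold change of 0.14 (SE 0.237, adjusted p = 0.785). Fanci and the translocase Fancm had log2 fold changes of 0.11 and -0.0291.

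**Figure D2:**
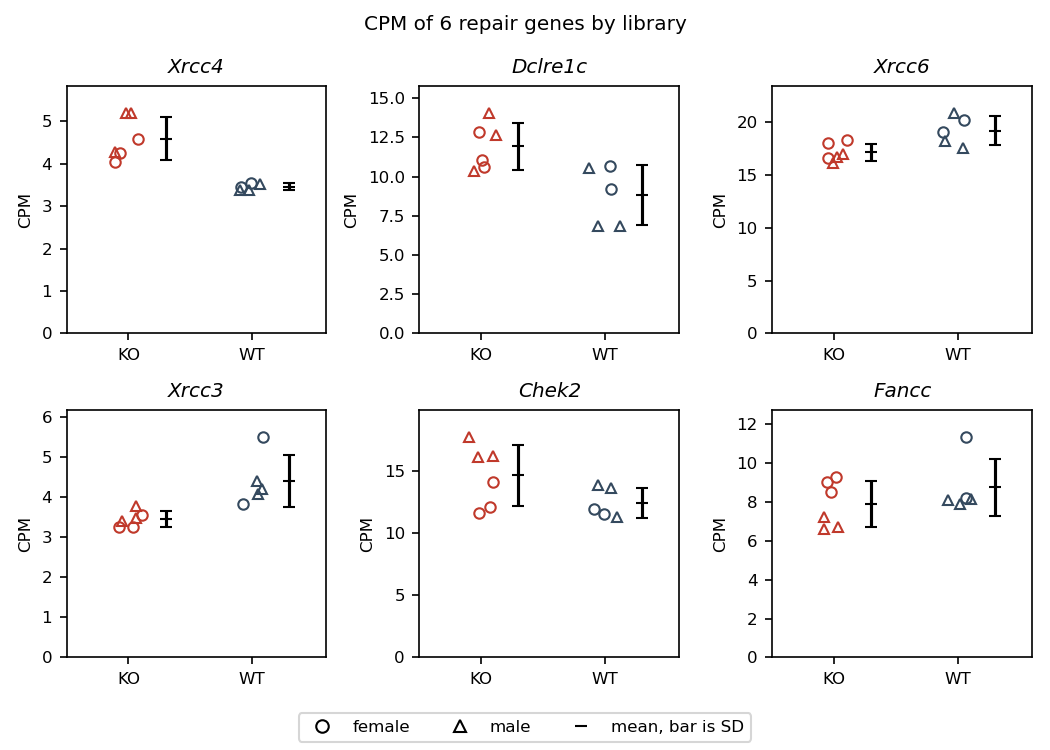
CPM of 6 repair genes in each library, with KO libraries left of WT libraries in each panel and females and males marked. Xrcc4 and Xrcc3 separate the genotypes without overlap, while Dclre1c, Xrcc6, Chek2 and Fancc overlap. Short bars mark the mean and long bars the SD.

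The exons of 9 of the 39 genes share 5% or more of their length with a gene on the opposite strand. Among them, 7.69% of Xrcc6 lies under Desi1, 18.6% of Fancc under Gm16133 and 2010111I01Rik, 16.0% of Fanci under Polg, 15.4% of Rad54l under Lrrc41, 15.0% of Trp53bp1 under Tubgcp4 and 10.5% of Fanca under Zfp276. Smaller overlaps include 3.83% of Dclre1c under Suv39h2 and 2.66% of Xrcc4 under Tmem167. The strand setting of the counting is not given in the sources used here, so the levels of all these genes may include reads of their neighbours.

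No gene was called in the wider pathway either. Of 70 other break and crosslink repair genes, all tested, 40 (57.1%) had a higher fitted level in KO, 5 reached an unadjusted p under 0.05 (7.14%, 3 higher and 2 lower). Both shares stand beside those of all entries given above, 47.5% higher in KO and 17.2% at that p, so the second was below the background. The smallest p belonged to Faap100, a partner of the Fanconi core complex, with 17.2 ± 0.732 CPM in KO libraries and 14.9 ± 0.872 CPM in WT libraries (SD, n = 6 and 5), a log2 fold change of 0.21 (SE 0.0661, adjusted p = 0.184) and no overlap between genotypes. The next 4 were Babam2, a subunit of the BRCA1-A complex, at 0.26, Tdp2, which clears topoisomerase from DNA ends, at -0.25, the Fanconi core gene Fancg at 0.31 and the helicase Helq at -0.29.

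By sex, the repair genes leaned in opposite directions, and the difference itself was not called for any. In males, 13 of 39 genes (33.3%) had a higher fitted level in KO, beside 48.2% of all entries, with a median log2 fold change of -0.0998. In females, 30 of 39 (76.9%) had one, beside 51.7% of all entries, with a median of 0.173. The lean was not particular to the 39. Of the 70 other repair genes, 41.4% had a higher fitted level in KO in males (median -0.0303) and 70% in females (median 0.109). The count of genes called was 0 of 39 in males (2.19% of all entries) and 0 of 39 in females (0.00448% of all entries). At an unadjusted p under 0.05 there were 4 of 39 in males (10.3%, against 22.5% of all entries), Xrcc4, Dclre1c and Chek2 higher and Xrcc5 lower, and 1 of 39 in females (2.56%, against 6.69%), Xrcc3. The lowest adjusted p in males was that of Xrcc4, at 0.0545.

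Leukocyte and macrophage markers differed in the same male contrast. They summed to 7383 to 12460 CPM in KO males and 5174 to 6871 CPM in WT males, and to 7386 to 8147 CPM in KO females and 6190 to 7576 CPM in WT females. In males all 11 tested markers had a higher fitted level in KO, with a median log2 fold change of 0.82. Of these, 4 were called (edgeR adjusted p = 0.0469 each, with 2.19% of all entries called): Ptprc at 0.82, Cd68 at 0.93, Adgre1 at 1.02 and Laptm5 at 0.87. Without KO male 1, KO male 2 or WT male 1, or in limma-voom, 0 entries were called in males, so none of these 4 was. In females 8 of 11 had a higher fitted level in KO, with a median of 0.0651 and 0 called, and the difference between the sexes was called for 0 of 11. Their part in the male values of Xrcc4, Dclre1c, Chek2 and Xrcc5 was not tested.

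The genotype-by-sex term was called for 0 of 39 genes (0% of all entries in edgeR). At an unadjusted p under 0.05 there was 1, Xrcc5, against 13.3% of all entries. Xrcc5 had 9.86, 9.48 and 8.50 CPM in KO females and 7.61, 9.55 and 9.17 CPM in KO males, against 10.1 and 6.10 CPM in WT females and 11.4, 11.2 and 14.4 CPM in WT males. The difference of the log2 fold changes, male minus female, was -0.69 (SE 0.278, adjusted p = 0.337). For 18 genes the fitted level was higher in KO females and lower in KO males, each against WT of the same sex. DESeq2 called 3 genes in males, Dclre1c, Xrcc4 and Chek2, against 9.61% of all entries, and 0 in females. The only 2 WT females differed widely, and without WT female 1 edgeR called 6 genes in females, against 16.0% of all entries (6 of 39 is 15.4%), and 4 genes for the difference between the sexes (Brca2, Nbn, Xrcc5 and Nhej1), against 10.9% of all entries (4 of 39 is 10.3%). Those 6 were Brca2, Xrcc3, Nbn, Nhej1, Timeless and Fancd2, and they then rest on the single WT female 2, which is assumed to vary like the other groups.

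The repair genes varied more among WT than among KO cultures. The SD of CPM was larger in WT for 36 of 39 genes, beside 70.8% of all entries. WT female 2 was the lowest library for 19 genes, beside 27.6% of all entries, and WT male 1 the highest for 24, beside 19.4%. Both held for 14 genes. The highest library was 1.25 times the lowest for Rad50 and 6.83 times for Exo1, and for 24 of 39 genes this ratio was under 2.

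**Figure D3:**
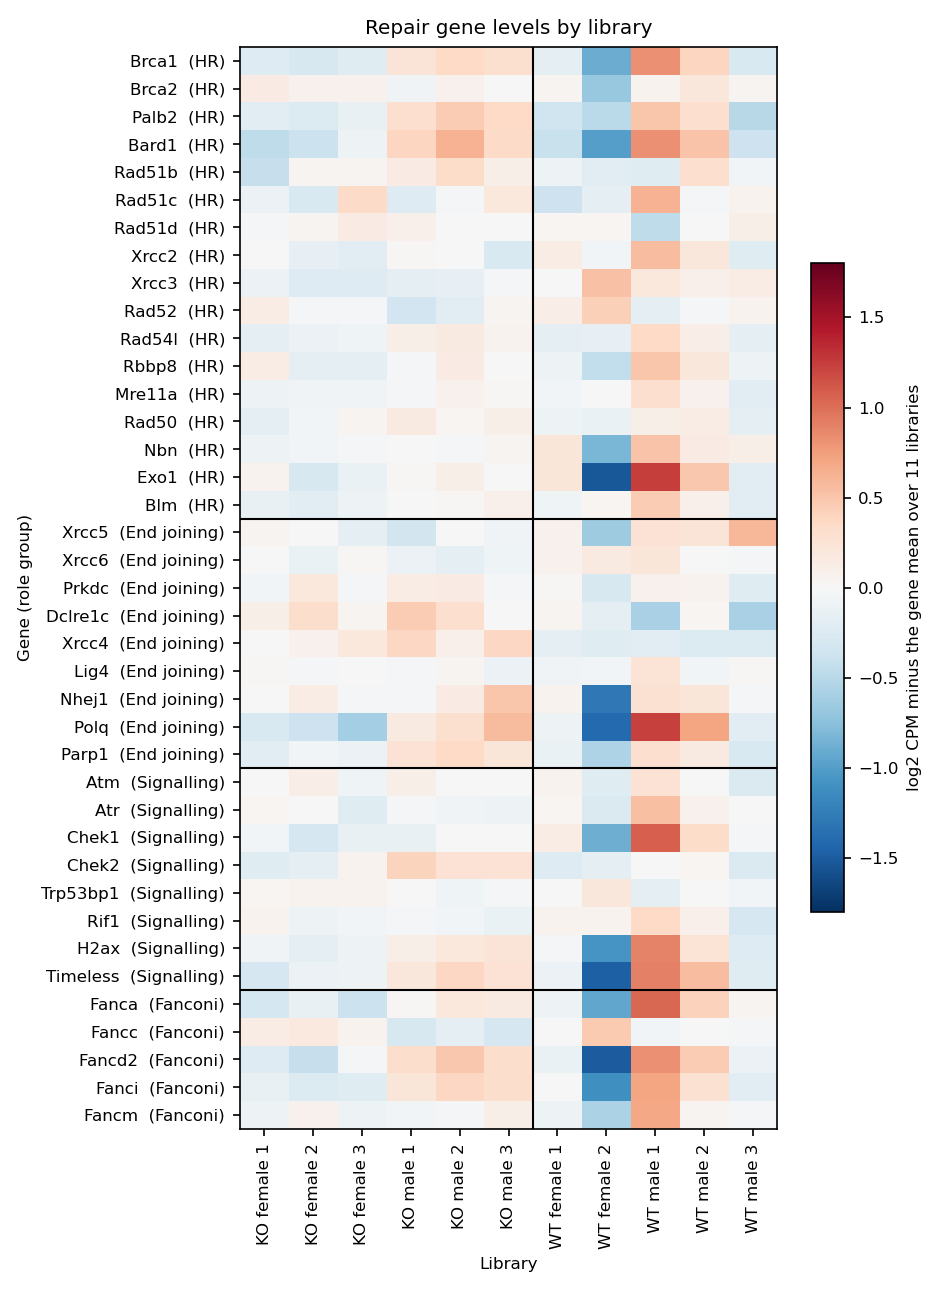
Log2 CPM of each of the 39 repair genes relative to its mean over the 11 libraries, with genes in rows by role and KO libraries left of WT libraries. WT female 2 holds the lowest value for 19 genes and WT male 1 the highest for 24.

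The level of 40 genes of DNA replication and mitosis, none of them a repair gene described here, varied in the same libraries. Their mean log2 CPM, used as a proliferation score, was 4.66, 4.60 and 4.70 in KO females and 4.95, 5.12 and 5.09 in KO males, against 4.73 and 3.69 in WT females and 5.76, 5.25 and 4.72 in WT males. WT female 2 was thus the lowest and WT male 1 the highest. The score did not differ detectably between genotypes, at 4.85 ± 0.227 in KO (SD, n = 6) and 4.83 ± 0.767 in WT (SD, n = 5). The KO minus WT difference within sex was 0.125 (two-sided exact permutation within sex, p = 0.645, smallest possible 0.005).

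With genotype and sex in the model, 17 of 39 repair genes (43.6%) were higher where the score was higher (edgeR adjusted p under 0.05), against 9.22% of all entries. None was called lower, against 5.24% of all entries, and 1 was lower at an unadjusted p under 0.05, Trp53bp1, with a slope of -0.16 (SE 0.0614, adjusted p = 0.108). Of the 3 tools, DESeq2 alone called that slope (adjusted p = 0.045), and limma-voom gave an adjusted p of 0.518. The score and the repair genes were read in the same libraries, so a slope describes these cultures and gives no direction of dependence.

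The genes called with the score were 4 of 5 Fanconi genes, 5 of 8 signalling genes, 5 of 17 recombination genes and 3 of 9 end joining genes. The counts depended on the tool: DESeq2 called 19 of 39 (19.1% of all entries in either direction), adding Brca2 (adjusted p = 0.0224) and, lower, Trp53bp1. With limma-voom 9 were called (2.45% of all entries), 3 Fanconi, 3 signalling, 2 recombination and 1 end joining, without Bard1, Nbn, Rbbp8, Nhej1, Parp1, Atm, Atr and Fancm. Slopes, from edgeR, are log2 units of the gene per log2 unit of the score. In the Fanconi group they were 1.07 for Fancd2, 0.90 for Fanca, 0.88 for Fanci and 0.62 for Fancm, while Fancc had -0.15. In signalling they were 1.18 for Timeless, 1.05 for Chek1, 1.00 for H2ax, 0.41 for Atr and 0.31 for Atm. In recombination they were 1.52 for Exo1, 0.79 for Brca1, 0.77 for Bard1, 0.69 for Nbn and 0.48 for Rbbp8. In end joining they were 1.23 for Polq, 0.79 for Nhej1 and 0.38 for Parp1. Rad51b, Rad51c, Rad51d, Xrcc2, Xrcc3, both Ku subunits, Xrcc4, Lig4, Prkdc, Dclre1c and Chek2 were among the 22 not called.

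**Figure D4:**
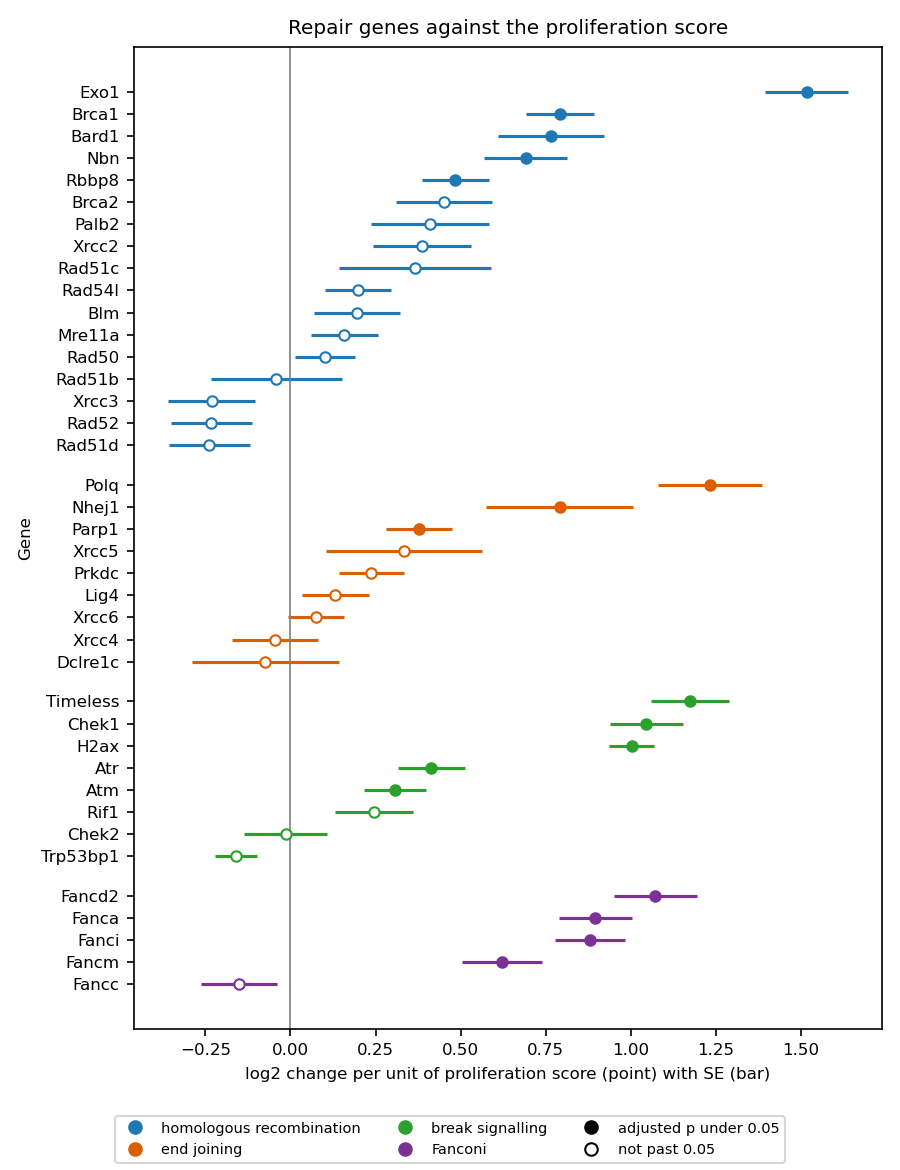
Slope of each repair gene on the proliferation score, in log2 CPM per log2 unit of score, with its standard error as bars, by role. Exo1 (1.52), Polq (1.23) and Timeless (1.18) have the steepest slopes, and 17 genes are called, all higher.

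The smallest p values were those of H2ax, at 1.00 (SE 0.0664, adjusted p = 6.8e-05), Exo1, at 1.52 (SE 0.122, adjusted p = 0.000103), and Timeless, at 1.18 (SE 0.114, adjusted p = 0.000204). H2ax was given above. Exo1, the exonuclease of long resection, had 5.48, 4.30 and 4.83 CPM in KO females and 5.33, 5.68 and 5.29 CPM in KO males, against 6.12 and 1.83 CPM in WT females and 12.5, 7.36 and 4.57 CPM in WT males. Timeless had 6.60, 7.54 and 7.60 CPM in KO females and 9.35, 10.5 and 9.70 CPM in KO males, against 7.58 and 2.95 CPM in WT females and 15.2, 12.0 and 7.01 CPM in WT males. In both, WT male 1 was the highest and WT female 2 the lowest, as in the score. The largest p values were those of Dclre1c, with a slope of -0.0735 (SE 0.215, adjusted p = 0.847), Rad51b, with -0.0417 (SE 0.193, adjusted p = 0.908), and Chek2, with -0.0145 (SE 0.123, adjusted p = 0.951). Rad51b had 1.66, 2.28 and 2.28 CPM in KO females and 2.42, 2.75 and 2.36 CPM in KO males, against 2.06 and 1.91 CPM in WT females and 1.89, 2.70 and 2.12 CPM in WT males, with KO male 2 and WT male 2 the highest.

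These calls rest on WT female 2 and WT male 1. With any 1 of the 11 libraries left out, 12 to 18 repair genes were called, while the share of all entries called in either direction ran from 3.55% (without WT female 2, with 15 repair genes) to 22.3% (without WT male 3, with 18). With both of these WT libraries left out, 0 were, and neither was any other entry. The slopes were then 0.917 for H2ax, 1.28 for Exo1 and 1.33 for Timeless. Those of Dclre1c, Rad51b and Chek2 turned to 0.839, 0.576 and 0.493. The remaining 9 libraries span scores of only 4.60 to 5.25. With so small a range, this fit cannot tell whether genes with a slope near 0 over all libraries differ from the others.

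**Figure D5:**
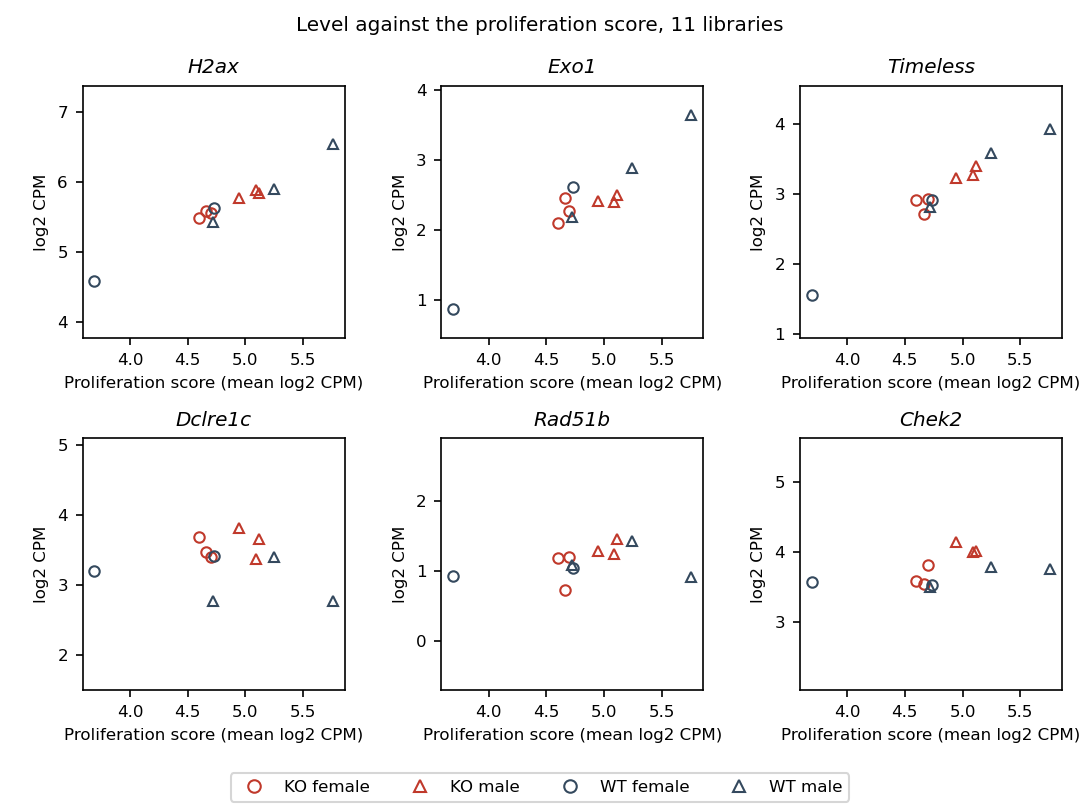
Log2 CPM of 6 repair genes against the proliferation score in each of the 11 libraries, KO and WT marked apart. H2ax, Exo1 and Timeless climb with the score from WT female 2 (3.69) to WT male 1 (5.76), and Dclre1c, Rad51b and Chek2 do not.

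With the score added to the sex-specific model, an alternative chosen after the values were seen, the counts in each sex were closer to even. In males 20 of 39 genes then had a higher fitted level in KO, with a median log2 fold change of 0.00227, and in females 16 of 39, with a median of -0.0130. The genes called in males were then 2 of 39 (5.13%, against 9.14% of all entries), Xrcc4 at 0.52 (adjusted p = 0.0375) and Parp1 at 0.30 (adjusted p = 0.0486).

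Promoter letters are given for genes at both ends of this ordering, because cell-cycle genes often carry sites for E2F, a CHR element or CCAAT boxes near their start. RefSeq promoters (build GRCm38.p6, 250 bases before to 50 after the start) were found for 29 of the 39 genes. They were searched on both strands for E2F letters (TTTCCCGC, TTTCGCGC, TTTGCCGC or TTTGGCGC), a CHR element (TTTGAA) and a CCAAT box (CCAAT). Matches are in capitals, and the strand is that of the gene. Timeless (chr10:128237816-128238115, plus strand), Chek1 (chr9:36726609-36726908, minus strand), Fanci (chr7:79392088-79392387, plus strand) and Fanca (chr8:123318527-123318826, minus strand) had the smallest p for the score among genes with an entry. Rad51b (chr12:79297032-79297331, plus strand, 1 of 2 promoters listed) and Chek2 (chr5:110839733-110840032, plus strand) had the largest.
Timeless: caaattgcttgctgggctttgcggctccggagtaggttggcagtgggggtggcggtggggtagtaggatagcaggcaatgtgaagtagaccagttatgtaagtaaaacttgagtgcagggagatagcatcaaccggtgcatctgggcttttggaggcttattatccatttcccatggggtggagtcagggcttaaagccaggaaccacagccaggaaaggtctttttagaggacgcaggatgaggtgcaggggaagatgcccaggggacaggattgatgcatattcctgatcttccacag
Chek1: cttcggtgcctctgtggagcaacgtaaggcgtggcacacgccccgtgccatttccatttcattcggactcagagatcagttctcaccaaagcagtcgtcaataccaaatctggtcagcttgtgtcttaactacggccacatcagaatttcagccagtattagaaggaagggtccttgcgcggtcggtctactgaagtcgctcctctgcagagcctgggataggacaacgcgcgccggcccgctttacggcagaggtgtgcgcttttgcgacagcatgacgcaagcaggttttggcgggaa
Fanci: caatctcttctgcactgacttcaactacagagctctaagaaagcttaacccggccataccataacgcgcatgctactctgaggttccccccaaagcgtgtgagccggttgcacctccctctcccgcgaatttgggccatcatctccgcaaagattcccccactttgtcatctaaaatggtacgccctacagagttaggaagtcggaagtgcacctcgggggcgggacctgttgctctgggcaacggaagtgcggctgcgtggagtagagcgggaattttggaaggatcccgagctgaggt
Fanca: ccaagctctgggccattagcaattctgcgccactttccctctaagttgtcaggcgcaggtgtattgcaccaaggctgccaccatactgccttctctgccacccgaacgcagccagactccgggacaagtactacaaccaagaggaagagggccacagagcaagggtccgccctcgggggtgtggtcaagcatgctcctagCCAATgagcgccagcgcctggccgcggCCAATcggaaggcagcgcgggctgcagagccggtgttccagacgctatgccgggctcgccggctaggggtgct
Rad51b: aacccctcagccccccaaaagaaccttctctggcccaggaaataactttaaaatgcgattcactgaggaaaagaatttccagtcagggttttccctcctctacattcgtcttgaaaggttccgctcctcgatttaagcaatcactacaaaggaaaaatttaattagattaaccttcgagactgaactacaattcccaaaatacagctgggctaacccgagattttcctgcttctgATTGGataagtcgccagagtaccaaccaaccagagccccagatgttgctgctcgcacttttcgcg
Chek2: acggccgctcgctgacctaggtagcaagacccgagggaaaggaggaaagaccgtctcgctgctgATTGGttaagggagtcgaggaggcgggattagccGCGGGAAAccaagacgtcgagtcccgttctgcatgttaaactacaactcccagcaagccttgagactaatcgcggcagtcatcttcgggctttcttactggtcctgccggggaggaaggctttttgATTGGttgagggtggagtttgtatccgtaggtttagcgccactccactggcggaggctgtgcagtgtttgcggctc

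Timeless, Chek1 and Fanci held no whole match to these letters in this window. Only exact and complete matches were counted, so the search can miss sites. The Chek1 window ends inside the E2F letters GCGGGAAA and the Rad51b window inside TTTCGCGC, each cut before the last letter. Fanca held 2 CCAAT boxes, at 50 and 23 bases before the start. Rad51b held 1, at 15 bases before it. Chek2 held 2, at 186 and 26 bases before it, and E2F letters at 152 bases before it, read as GCGGGAAA on the gene's strand. E2F letters were in 1 of 12 promoters of genes called with the score (8.33%) and 4 of 17 of those not called (23.5%), beside 2.32% of all 27025 promoters. A CHR element was in 2 of 12 (16.7%) and 0 of 17, beside 18.1% of all. A CCAAT box was in 4 of 12 (33.3%) and 11 of 17 (64.7%), beside 37.9% of all. A match describes the letters and is not evidence of binding.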

How the data were processed

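RNA of 11 libraries was analysed from the deposited raw whole-number counts, 1 table per library with 58223 entries (56980 genes and 1243 repeat subfamilies). The submitters' processing notes name Trim Galore, STAR and the build GRCm39, with no versions. The counting program and its strand setting are not given in the sources used here. Symbols came from GENCODE vM21 and RefSeq tables of the older GRCm38 build, which matched 38 of the 39 genes by symbol and H2ax by its older symbol. Exon lengths and promoters also come from that build.

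Entries were filtered with filterByExpr (minimum count 10) in edgeR 4.0.16 (R 4.3.3), leaving 22298 for the quasi-likelihood F-test. Library sizes and TMM scaling factors (0.951 to 1.04) were taken from the entries kept, and CPM was computed from both. The model held sex and genotype (8 residual degrees of freedom), or a mean for each genotype and sex, or the proliferation score added (7 each). P-values were adjusted by Benjamini-Hochberg over all entries, at 0.05. Errors are SD for CPM and SE for log2 values from a fit. The proliferation score was the mean log2 CPM (prior count 2) of 40 genes. DESeq2 1.42.0, limma 3.58.1 with voom, other scalings, filters and covariates, and libraries left out were alternatives. The test scripts were tested on simulated data.

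The members, lists and tests were chosen with earlier results of these data known. Genes described in full were Brca1, Brca2, Atm, H2ax and, in each role, the 3 with the smallest p for KO over WT. For the score they were the 3 with the smallest and the 3 with the largest p, for promoters 4 and 2, and for other repair genes the 5 with the smallest p. Libraries of 1 group differed beyond sampling noise. Some values of 2 genes outside the 39 are not reported here.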

Additional observations from a re-analysis of the deposited data

Results flagged for a closer look

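In 6 of 80 groups (each of 39 genes and the proliferation score, in KO and in WT), the highest or lowest library stood apart from the rest by Dixon's test, which chance alone gives in about 1 of 20 groups. Brca2 had 8.03 CPM in WT female 2, against 13.3 CPM in the nearest WT library. Fancc had 11.4 CPM in WT female 2, against 8.22 CPM in the nearest. Rad51d had 8.49 CPM in WT male 1, against 11.7 CPM in the nearest. Lig4 had 8.83 CPM in WT male 1, against 7.51 CPM in the nearest. Rad51b had 2.70 CPM in WT male 2, against 2.12 CPM in the nearest. Nhej1 had 3.15 CPM in KO male 3, against 2.49 CPM in the nearest KO library. WT female 2 and WT male 1, which hold the lowest and highest proliferation score, account for 4 of the 6.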

How the results depend on the processing

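The count of repair genes called for KO over WT, 0 in edgeR, was 1 in DESeq2 and 3 in limma-voom, and 0 to 1 with any 1 library left out (1 without WT female 1). It stayed 0 under RLE scaling, no filter, genes only, both covariates, and without both WT female 2 and WT male 1, a setting chosen for this count after seeing the data, as were those of the count without overlap. The count at an unadjusted p under 0.05, 5 over all libraries, was 9 in limma-voom (beside 7784 of 22298 entries), 10 with the proliferation score as a covariate (5095 entries), 1 with the leukocyte score (445 entries), and 4 to 9 with 1 library left out (9 without WT female 2). In males DESeq2 called 3 (2142 entries) and the added fit with the proliferation score 2 (2039 entries). Leaving out 1 library gave 0 to 1 where each genotype and sex kept at least 2 libraries. The 1 was Dclre1c without WT male 2 (2.56%, against 4.67% of all entries). In females the range was 0 to 6 and for genotype by sex 0 to 4, both highest without WT female 1. The count without overlap, 2, was 2 to 4, and the share of all entries moved too. It was 4 without WT female 2, with Nbn and Xrcc5 added (10.3%, against 2.55% of all entries). Where it stayed 2 (5.13%), the share of all entries ran from 1.18% under RLE scaling to 3.7% without KO female 1. Genes called with the score, 17, were 19 in DESeq2 (4256 entries), 9 in limma-voom (547 entries), 12 to 18 with 1 library left out, and 0 without the 2 libraries of farthest score.

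With the replicate number as a block, 3 genes reached an unadjusted p under 0.05 (2696 entries), 5 were called with the score (279 entries), and 0 were called for KO over WT. Correlations of deviations from group means ran from -0.145 to 0.0731 for KO and WT libraries with the same number and from -0.238 to 0.192 for the others. The labels do not say whether the number pairs the samples. With 2 WT females the female correlations are forced to mirror each other, so these values cannot settle it. What a call lost under this block means was not tested.

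Fold changes near 0 turned sign in limma-voom for Brca1 (-0.0249), Brca2 (-0.0943) and H2ax (-0.0365), with the leukocyte score for Atm (-0.00506), and without WT female 2 and WT male 1 for Brca2 (-0.0733). In that last fit of the score, the slopes of Dclre1c, Rad51b and Chek2 were 0.839, 0.576 and 0.493. With 1 library left out, log2 fold changes ran from -0.0999 to 0.207 for Brca1, -0.0706 to 0.173 for Brca2, -0.0210 to 0.109 for Atm, -0.182 to 0.231 for H2ax, -0.100 to 0.311 for Fancd2 and -0.376 to 0.0101 for Fanca. Slopes ran from -0.216 to 0.178 for Dclre1c, -0.159 to 0.186 for Rad51b and -0.117 to 0.196 for Chek2. The proliferation score difference ran from -0.150 to 0.388. The causes were not tested. Medians by role ran from -0.0945 to 0.0614 in recombination, 0.0150 to 0.182 in end joining, -0.159 to 0.0385 in signalling and -0.137 to 0.120 in the Fanconi group over all alternatives.

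Counting error is largest for the repair genes with the fewest counts, of which the lowest value was 36 in 1 library. The 2 WT females limit every female contrast.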

Other observations

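The 70 other repair genes moved with the proliferation score in a similar share to the 39 described: 29 (41.4%) were called higher and 0 lower. Among those with the smallest p were the slopes of the Atr activator Topbp1 (0.68), the helicase Brip1 (1.15), Tipin, the partner of Timeless (0.78), and the resolvase Gen1 (1.53). These 4 were chosen after their values were seen.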
